A study of Mus musculus with 2 samples.

Results

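The genes described here are 10 markers of identity and maturation in dentate granule neurons, chosen by name as the rows of both feature tables whose gene symbol was Prox1, Bcl11b, Calb1, Calb2, Dsp, C1ql2, C1ql3, Plk5, Nrgn or Camk2a. They are 10 of the 32285 genes counted in each library, and all 10 were found in both. Single-cell RNA sequencing (10x Genomics 3′ v3 chemistry, which counts molecules by unique molecular identifiers, UMIs) was run on dissociated dentate gyrus of mice at postnatal day 5. There was 1 control library from wild type tissue and 1 Setdb1_cKO library from mice with a conditional knockout of Setdb1, the gene of a methyltransferase that places the repressive histone mark H3K9 trimethylation. The driver of the deletion, the deleted exons and the number of animals in each library are not given in the labels. With 1 library for each genotype, every difference below is between these 2 libraries, carries no p-value, and its interval covers counting error only.

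The dentate gyrus makes granule neurons from radial glia through dividing intermediate progenitors and neuroblasts. Prox1 and Bcl11b are transcription factors of this lineage, Prox1 being needed for granule neuron identity and Bcl11b acting in neurons that have left the cell cycle. Calb2 encodes calretinin, a calcium-binding protein that young granule neurons hold for a short time, and Calb1 encodes calbindin, which takes its place as they mature. C1ql2 and C1ql3 are secreted C1q-like proteins of the mossy fibre synapse, where they join neurexins to kainate receptors. Dsp encodes desmoplakin, the plaque protein that anchors desmosomes and a known marker of mature granule neurons. Nrgn encodes neurogranin, a postsynaptic protein that binds calmodulin, Camk2a encodes the alpha subunit of calcium/calmodulin-dependent kinase II, and Plk5 encodes a polo-like kinase of the brain.

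After filtering, 10815 control and 9385 Setdb1_cKO cells were kept, with medians of 5932 and 6976 UMIs per cell. Cells were put into classes by the UMIs of marker genes, none of them one of the 10 genes, and 10000 control (92.5%) and 8578 Setdb1_cKO cells (91.4%) fell into a class. The class names stand for cells that resemble the named type by these markers. Granule-lineage neurons were divided by a maturation share, the percentage that Snap25, Syt1, Rbfox3, Slc17a7 and Fxyd7 took of the UMIs of those genes plus the neuroblast genes Igfbpl1, Sox11, Dcx, Neurod1 and Draxin. Early neuroblasts lay below 5%, late neuroblasts from 5% to below 10%, maturing granule neurons from 10% to below 20% and the most mature granule neurons at 20% or above. These are ranges of a score, not types. Of 3704 control and 4004 Setdb1_cKO lineage neurons, 816 and 800 lay within 1 point of the 5% limit, 207 and 354 within 1 point of the 10% limit, and 3 and 29 within 1 point of the 20% limit. Early neuroblasts numbered 2277 in control and 1738 in Setdb1_cKO, late neuroblasts 1183 and 1435, maturing granule neurons 229 and 672, and the most mature granule neurons 15 and 159. The most mature class of the control library therefore rests on 15 cells.

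Setdb1 itself had 3111 UMIs in control (42.8 counts scaled by the UMI total of the kept cells, in the unit CPM) and 1566 in Setdb1_cKO (20.5 CPM), a ratio of 0.479. It was lower in early neuroblasts (41.4 and 22.4 CPM), late neuroblasts (37.1 and 20.8) and maturing granule neurons (35.0 and 21.9), while microglia or macrophages held 51.0 and 43.1 CPM. Xist had 16 UMIs in control and 94364 in Setdb1_cKO, and Ddx3y, a Y-linked gene, had 4176 and 0, so genotype and sex cannot be told apart. The libraries shared 68 deposited cell barcodes, 39 of them among the kept cells.

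Sequences of the 300 bases around the transcription start were found in RefSeq (GRCm38.p6) for 7 of the 10 genes. The 250 bases before the start are shown for Dsp and C1ql2, whose ratios between the libraries were among the highest of the 10 genes in every neuroblast class below, with any match to the E-box CANNTG, the motif that proneural factors such as Neurod1 bind, in capitals.
Dsp: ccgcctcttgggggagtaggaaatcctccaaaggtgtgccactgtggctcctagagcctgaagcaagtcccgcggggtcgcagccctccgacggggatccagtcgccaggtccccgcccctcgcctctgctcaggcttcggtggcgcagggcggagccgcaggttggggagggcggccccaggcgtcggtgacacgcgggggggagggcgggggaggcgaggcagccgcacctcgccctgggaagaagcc
C1ql2: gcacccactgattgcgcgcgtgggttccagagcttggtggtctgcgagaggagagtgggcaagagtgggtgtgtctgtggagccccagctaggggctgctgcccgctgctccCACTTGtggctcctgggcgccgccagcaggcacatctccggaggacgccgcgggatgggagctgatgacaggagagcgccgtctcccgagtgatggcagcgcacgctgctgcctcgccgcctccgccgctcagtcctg
The Dsp stretch is chr13:38151044-38151293 on the forward strand and the C1ql2 stretch is chr1:120340332-120340581 on the forward strand. Each ends at the base before the start of its gene in GENCODE vM21. Overlap with exons was not tested. The Dsp stretch held 0 CANNTG matches and 72.4% G or C, and the C1ql2 stretch held 1 match and 68.8%. Over whole windows of the same length, 5 of the 7 genes (C1ql2, Prox1, C1ql3, Nrgn and Plk5) had a match on either strand, and 66.2% of all 32851 windows had one. The form CAGATG, which is a case of CANNTG, was in the windows of Prox1 and Nrgn, against 14.4% of all windows. A match describes letters only, and no binding was measured here.

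The levels below are CPM of the class, and pairs of values are always control and then Setdb1_cKO. Prox1, at chr1:190118035-190170714 on the reverse strand, marked the lineage in both libraries. In control it held 129 CPM in astroglia (radial glia and astrocytes), 328 CPM in cycling and 556 CPM in non-cycling intermediate progenitors, then 1288, 1326 and 1248 CPM in early neuroblasts, late neuroblasts and maturing granule neurons. In Setdb1_cKO the same classes held 92.8, 302, 458, 1144, 1232 and 1153 CPM. The order from astroglia up to neuroblasts was the same in both libraries, and in control the intervals of the 3 highest classes overlapped from neighbour to neighbour. Ratios of Setdb1_cKO to control were 0.888 (95% interval 0.867 to 0.909) in early neuroblasts, 0.929 (0.904 to 0.955) in late neuroblasts and 0.923 (0.872 to 0.978) in maturing granule neurons, all below 1 and well short of 1.5-fold. They were 0.717 (0.675 to 0.762) in astroglia, 0.920 in cycling and 0.824 in non-cycling progenitors, and 0.775 in the most mature class. Microglia or macrophages held 103 and 108 CPM, close to the levels of astroglia. After each cell was thinned to 2000 UMIs, 87.0% of control and 86.2% of Setdb1_cKO late neuroblasts had a Prox1 UMI, against 12.9% and 13.3% of microglia or macrophages, cells that should lack it. Medians of depth before thinning were 5401 and 6545 UMIs in late neuroblasts and 5376 and 6410 in microglia or macrophages. Outside the lineage, ependymal cells (66.1 and 203 CPM, ratio 3.07) and GABAergic neurons (116 and 268 CPM, ratio 2.32) had the highest Prox1 ratios. These came from 17 and 67 ependymal cells and 22 and 55 GABAergic neurons. The control ependymal level rests on 8 UMIs and lay below the microglial level. In Setdb1_cKO 5 cells held 51.0% of the 147 ependymal UMIs and 5 held 32.1% of the 196 GABAergic UMIs.

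Bcl11b, at chr12:107910403-108003602 on the reverse strand, was called lower in Setdb1_cKO astroglia and progenitors and in neither direction in neuroblasts and maturing granule neurons. In control it held 7.92 CPM in astroglia, 7.65 in cycling and 16.9 in non-cycling intermediate progenitors, 137 in early neuroblasts, 188 in late neuroblasts and 232 in maturing granule neurons. In Setdb1_cKO these levels were 4.38, 2.79, 9.77, 114, 195 and 249 CPM. The ratio was 0.553 (0.419 to 0.725) in astroglia, 0.365 (0.149 to 0.783) in cycling progenitors, from 45 and 8 UMIs, and 0.577 (0.363 to 0.890) in non-cycling progenitors, then 0.827, 1.04 and 1.07 in the 3 later classes. Microglia or macrophages, which should lack it, held 10.3 and 17.03 CPM, the latter from 34 UMIs of which 5 cells held 64.7%. Keeping the called doublets ended the call in all 3 early classes. In non-cycling progenitors it also ended with stricter gates (0.839) and without Neurod6 UMIs (0.635), and clustering without the 10 genes turned it to 1.17 (0.0289 to 6.78).

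**Figure D1:**
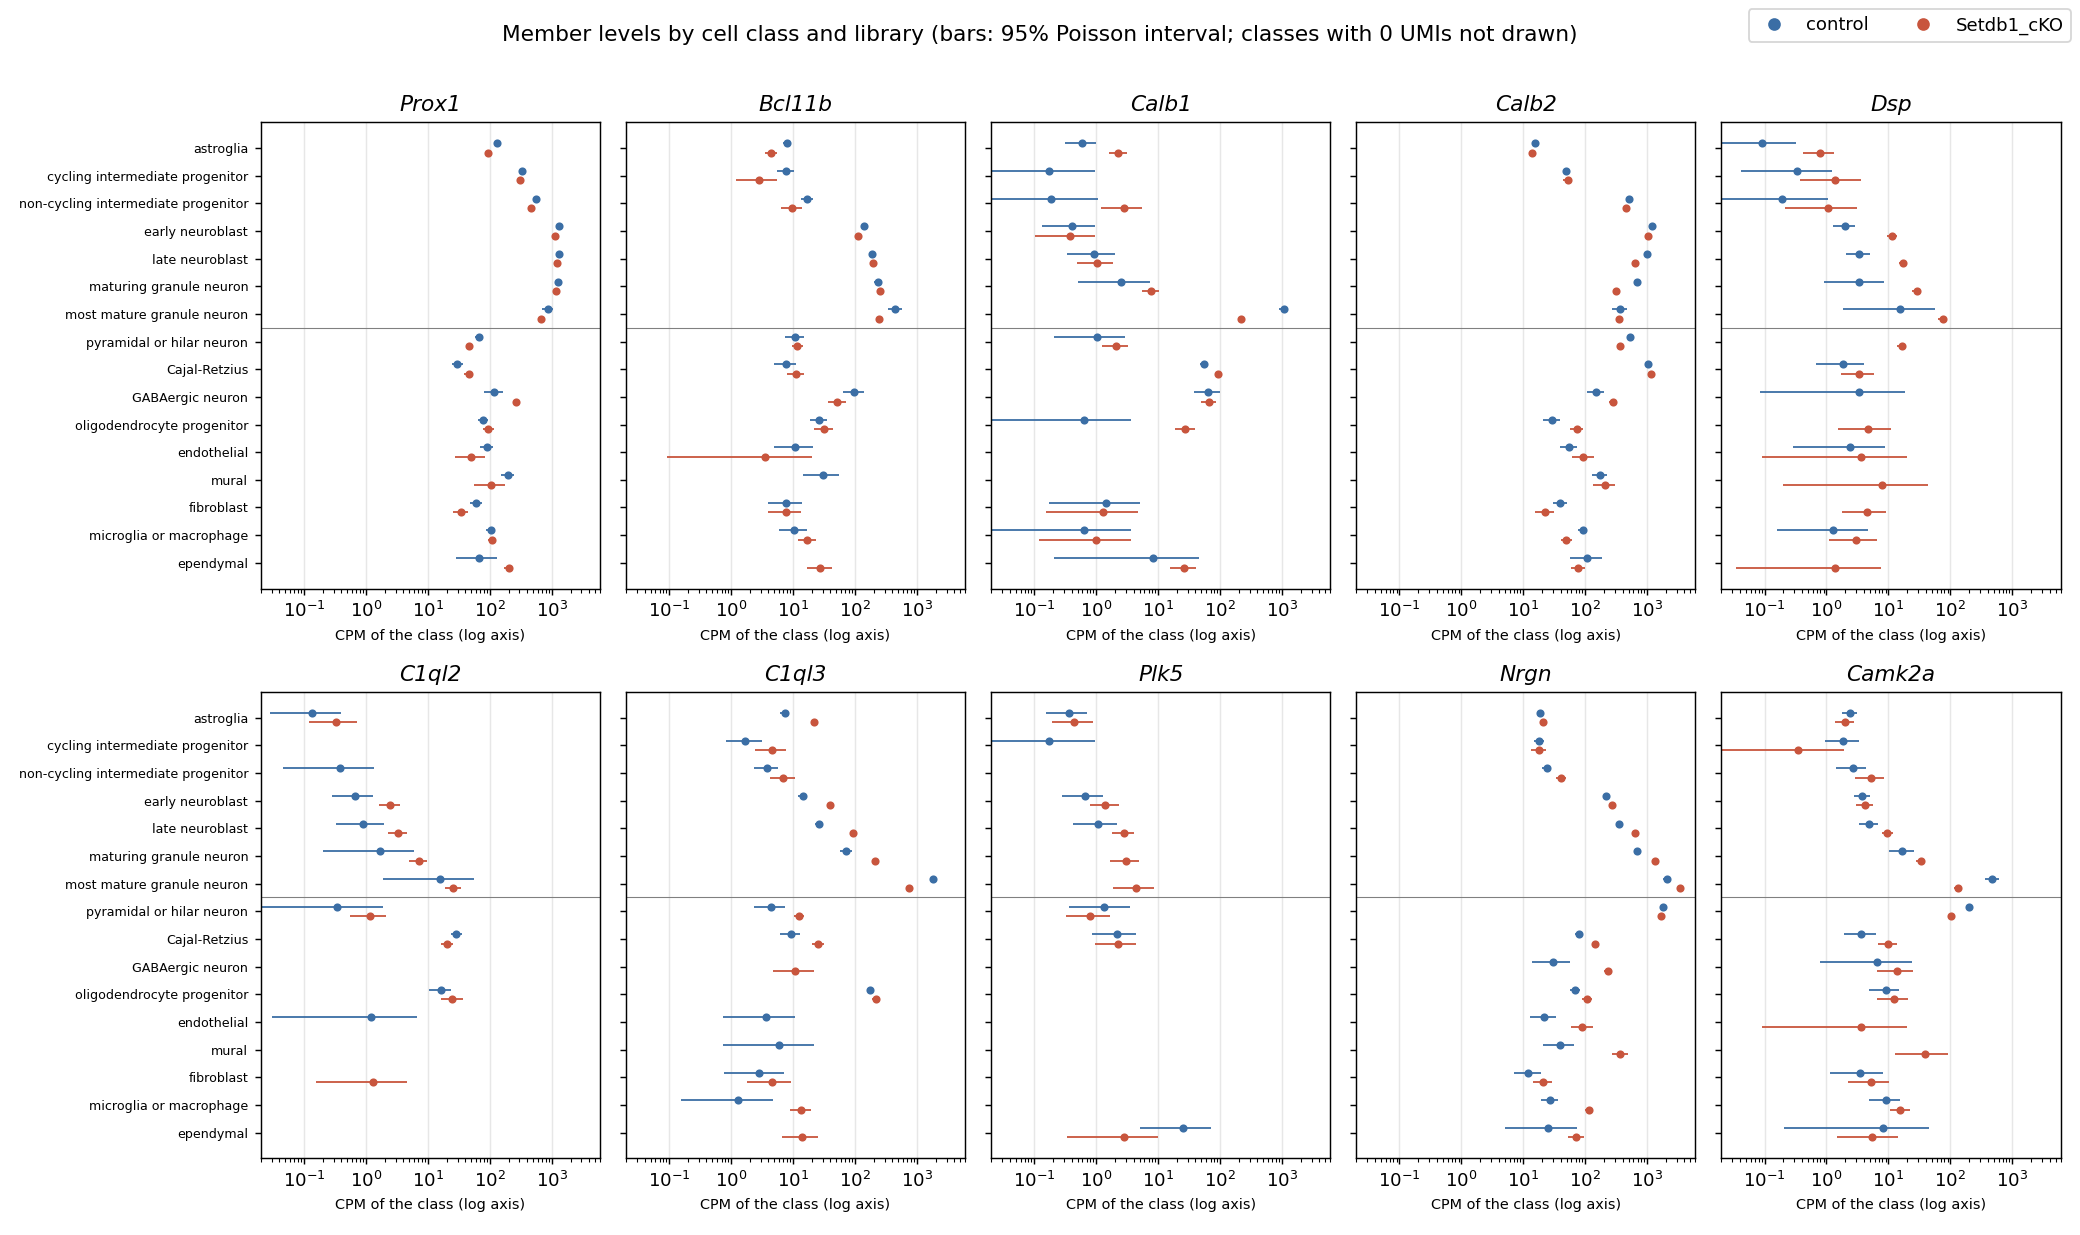
Level of each of the 10 genes (CPM of the class, log axis, own panel for each gene) in 16 cell classes, control in blue and Setdb1_cKO in red, with exact 95% Poisson intervals that are cut at the left edge of the axis and classes with 0 UMIs not drawn. Prox1 climbs from 129 and 92.8 CPM in astroglia to 1326 and 1232 CPM in late neuroblasts, and the red points of Dsp and C1ql3 lie to the right of the blue ones in neuroblasts and maturing granule neurons.

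A gene was called higher or lower in a class when its ratio was at least 1.5-fold and the interval excluded 1, among genes with at least 30 UMIs over both libraries. In early neuroblasts 3 of 8 measured genes of the set were higher (C1ql2, C1ql3 and Dsp) and 0 lower, where 4.59% of all 12436 measured genes were higher and 4.58% lower. In late neuroblasts 6 of 9 were higher (C1ql2, C1ql3, Nrgn, Plk5, Dsp and Camk2a) and 1 lower (Calb2), against 5.65% and 4.19% of 11896 genes. In maturing granule neurons 5 of 9 were higher (C1ql2, C1ql3, Nrgn, Dsp and Camk2a) and 1 lower (Calb2), against 4.89% and 5.26% of 10205 genes. Median log2 ratios of the measured genes of the set were 0.23, 0.97 and 0.99 in these 3 classes, and those of all genes were -0.04, -0.03 and -0.06. In the classes before the neuroblast stage, fewer of the 10 genes were measured. In astroglia 2 of 7 were higher (C1ql3 and Calb1) and 1 lower (Bcl11b), against 5.39% and 4.26% of all genes. Cycling progenitors had 0 of 4 higher and 1 lower (Bcl11b), against 3.27% and 6.11%. Non-cycling progenitors had 1 of 5 higher (Nrgn) and 1 lower (Bcl11b), against 3.06% and 6.56%.

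Several features of the cells move with these counts. Within each class the Setdb1_cKO cells had the higher median maturation share, 2.78% against 2.38% in early neuroblasts, 6.98% against 6.67% in late neuroblasts and 12.2% against 11.5% in maturing granule neurons. Rbfox3, a gene of the maturation share, was itself lower in Setdb1_cKO, at ratios of 0.805, 0.654 and 0.576 in the 3 classes. With Rbfox3 left out of the share, 4 genes were higher in early neuroblasts, 5 in late neuroblasts and 2, Dsp and C1ql3, in maturing granule neurons, where Nrgn then had a ratio of 1.47 and Camk2a of 1.37. Erythroid markers summed to 19.1 CPM in control and 225 CPM in Setdb1_cKO late neuroblasts, and to 15.01 and 155 CPM in maturing granule neurons, but to 309 and 34.3 CPM in early neuroblasts, with 0 of 4 markers at 0 in any of them. Intermediate progenitor markers summed to 238 and 427 CPM in early neuroblasts, 167 and 203 CPM in late neuroblasts and 108 and 75.5 CPM in maturing granule neurons, with 0 of 4 at 0. The part of these markers in the result was not tested. Classes from clustering without the 10 genes turned the direction in late neuroblasts of C1ql3 (0.467), Nrgn (0.885), Camk2a (0.285) and Calb2 (1.03), on a cluster of 50 control and 854 Setdb1_cKO cells, and took C1ql2 to 1.03, while Dsp there kept its call.

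**Figure D2:**
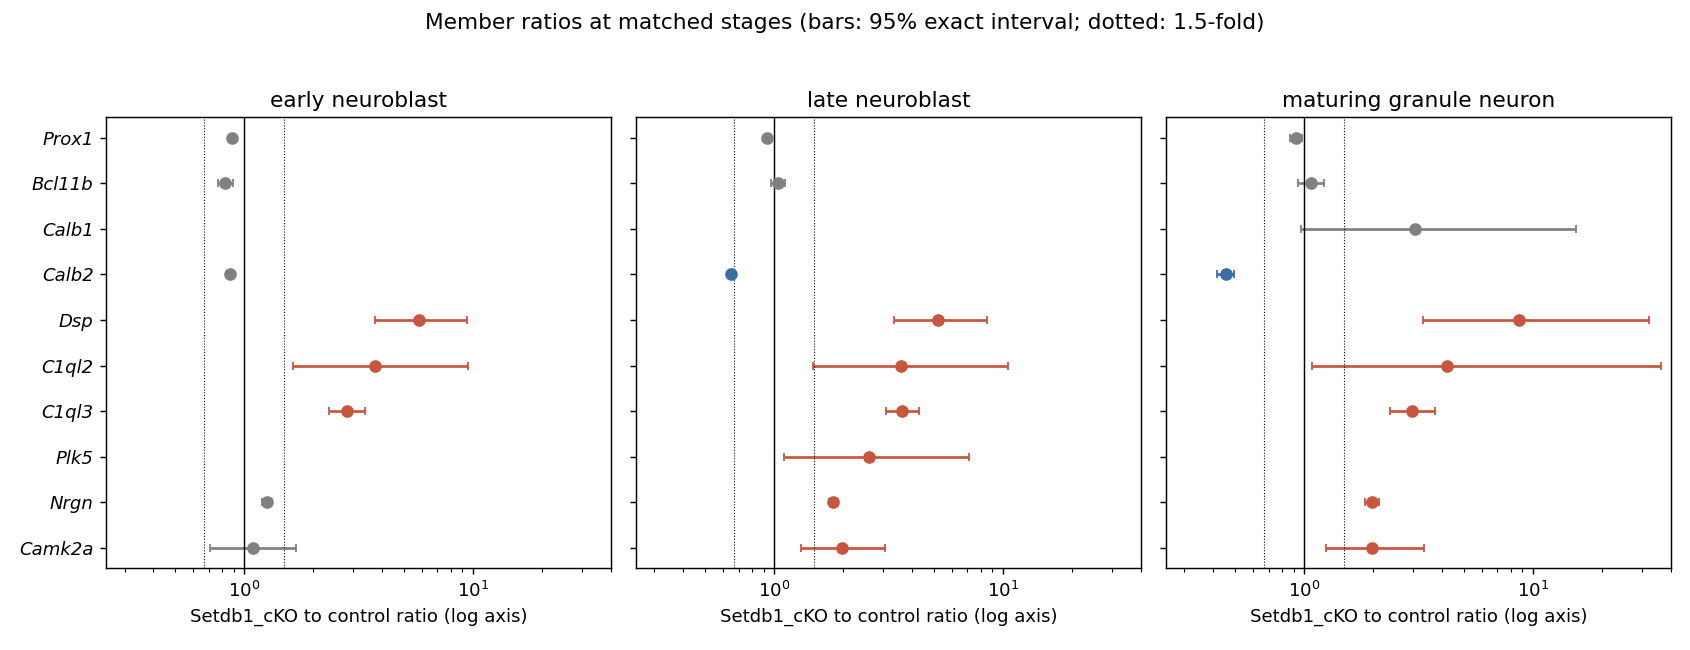
Ratio of Setdb1_cKO to control (log axis) for each gene in early neuroblasts, late neuroblasts and maturing granule neurons, with exact 95% intervals, red for genes called higher, blue for genes called lower, grey for neither, and dotted lines at 1.5-fold; genes with under 30 UMIs are not drawn. Dsp lies furthest to the right in each panel, at 5.82, 5.22 and 8.69, and Calb2 moves left from 0.864 to 0.650 and 0.454.

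Dsp, at chr13:38151294-38198577 on the forward strand, had the highest ratio of the measured genes of the set at these 3 stages. It had 24 UMIs in control and 122 in Setdb1_cKO early neuroblasts (1.97 and 11.4 CPM, ratio 5.82, 3.74 to 9.44), 22 and 170 UMIs in late neuroblasts (3.33 and 17.4 CPM, ratio 5.22, 3.34 to 8.55) and 4 and 144 in maturing granule neurons (3.34 and 29.0 CPM, ratio 8.69, 3.32 to 32.3). The UMIs were spread over many cells, 98 of the 1738 early neuroblasts and 122 of the 1435 late neuroblasts in Setdb1_cKO, and the 5 cells with most UMIs held 12.3% and 15.3% of them. In the least mature cells, with a share under 2%, control had 0.422 CPM from 2 UMIs and Setdb1_cKO 9.69 CPM. The Setdb1_cKO level then stood at 12.2, 17.4, 23.5, 50.4 and 49.6 CPM through the bins up to 30%, and at 104 CPM above 30%. Thinned to 2000 UMIs, 0.257% of control and 2.86% of Setdb1_cKO late neuroblasts had a Dsp UMI, against 0.415% and 0.391% of microglia or macrophages. The control share was thus not above the microglial one, which itself rests on very few cells. Before thinning, 2 of 270 control and 5 of 293 Setdb1_cKO microglia or macrophages had a Dsp UMI.

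Dsp was also present in Setdb1_cKO neurons of the pyramidal or hilar class: 0 UMIs in 181 control cells and 142 UMIs (16.3 CPM) in 443 Setdb1_cKO cells. Taking 3 counts over the control class as the limit that 0 allows, the level was at least 16.1-fold higher. In that class 2 of 7 measured genes of the set were higher, Dsp and C1ql3, against 4.44% of 11249 genes, and 1 was lower, Camk2a, against 6.48%. Over all kept cells Dsp had 81 and 815 UMIs, 1.11 and 10.7 CPM, a ratio of 9.57 (7.61 to 12.2) that also carries the different makeup of the libraries. The Dsp call held in early neuroblasts, late neuroblasts and maturing granule neurons under every alternative that gave a value there. Among these, the clustering gave early and late neuroblast classes that mixed stages.

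C1ql3, at chr2:13003457-13011806 on the reverse strand, was called higher in Setdb1_cKO early neuroblasts, late neuroblasts and maturing granule neurons, and in neither direction in non-cycling progenitors (1.85, 0.947 to 3.63, from 20 UMIs in each library). It held 14.2 CPM in control and 40.1 in Setdb1_cKO early neuroblasts (ratio 2.82, 2.36 to 3.38), 25.9 and 93.8 CPM in late neuroblasts (3.62, 3.07 to 4.29) and 71.7 and 212 CPM in maturing granule neurons (2.96, 2.38 to 3.73). Thinned shares of cells with a UMI were 8.52% (19 of 223 cells) in control and 26.2% (174 of 663) in Setdb1_cKO maturing granule neurons, against 0 of 241 microglia or macrophages in control, which allows up to 1.25%, and 1.56% in Setdb1_cKO. Astroglia also had more C1ql3 UMIs in Setdb1_cKO, 7.34 and 21.5 CPM, while microglia or macrophages held 1.29 and 13.5 CPM, the latter from 27 UMIs of which 5 cells held 74.1%. With the microglial level of each library subtracted, the ratio in astroglia was 1.32, which ended its call, and the ratios were 2.06 in early neuroblasts, 3.26 in late neuroblasts and 2.82 in maturing granule neurons. Oligodendrocyte progenitors held a high level in both libraries, 177 and 215 CPM, a ratio of 1.22.

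C1ql2, at chr1:120340582-120343174 on the forward strand, is the relative of C1ql3 and was far sparser. It had 8 and 26 UMIs in early neuroblasts (0.655 and 2.44 CPM, ratio 3.72, 1.64 to 9.52), 6 and 32 in late neuroblasts (0.909 and 3.28 CPM, ratio 3.60, 1.49 to 10.5) and 2 and 35 in maturing granule neurons (1.67 and 7.05 CPM, ratio 4.22, 1.09 to 36.3). The call held under 10 of 11 alternatives in late neuroblasts. In maturing granule neurons it held under 7 of 10, with ratios from 2.48 to 4.87. In Cajal-Retzius cells, early-born neurons near the hippocampal fissure, it held 28.8 and 20.6 CPM, and in oligodendrocyte progenitors 16.04 and 24.7 CPM. In control these were the 2 highest classes for C1ql2, with intervals that overlapped each other and that of the most mature granule neurons (15.4 CPM from 2 UMIs). Microglia or macrophages had 0 UMIs in both libraries.

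Of the calcium-binding pair, Calb2, at chr8:110137502-110168210 on the reverse strand, had overlapping levels in the least mature neurons and lower levels in Setdb1_cKO at each step from 2% to 20% of the maturation share. In cells with a share under 2% the libraries held 1237 and 1212 CPM, with overlapping intervals. From 2% to 5% they held 1164 and 952 CPM, and from 5% to 10% 995 and 647 CPM. From 10% to 15% they held 725 and 336 CPM, and from 15% to 20% 473 and 225 CPM. From 20% to 30% the levels were 549 and 293 CPM, and above 30% 302.5 and 419 CPM. The intervals overlapped in both of these bins, on 8 and 7 control cells. In the most mature class as a whole the ratio was 0.974. In the earlier classes the ratio was 0.864 (0.843 to 0.886) in early neuroblasts, 0.650 (0.628 to 0.673) in late neuroblasts and 0.454 (0.417 to 0.494) in maturing granule neurons. The late neuroblast ratio lies close to the 1.5-fold limit, and 3 alternatives ended the call: a class total without mitochondrial, haemoglobin, ribosomal and sex-linked genes (0.671), a mean over cells (0.694), and clustering without the 10 genes, which turned the direction (1.03). Intermediate progenitors that were not cycling held 513 and 448 CPM (0.874), and Cajal-Retzius cells, which also use calretinin, held 1039 and 1139 CPM (1.10). Pyramidal or hilar neurons held 536 and 367 CPM, also lower in Setdb1_cKO but not called.

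Calb1, at chr4:15881264-15908064 on the forward strand, was near 0 until the last class. It had 5 and 4 UMIs in early neuroblasts, 6 and 10 in late neuroblasts, and 3 and 38 in maturing granule neurons, where 1 control cell and 12 Setdb1_cKO cells held them all. In the most mature class it held 1076 CPM in control from 140 UMIs and 215 CPM in Setdb1_cKO from 392 UMIs, a ratio of 0.200 (0.164 to 0.244). In control 6 of 15 cells held these UMIs and 5 cells held 99.3% of them; in Setdb1_cKO 49 of 159 cells held them. Cajal-Retzius cells held 55.8 and 91.1 CPM (ratio 1.63, 1.36 to 1.97).

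**Figure D3:**
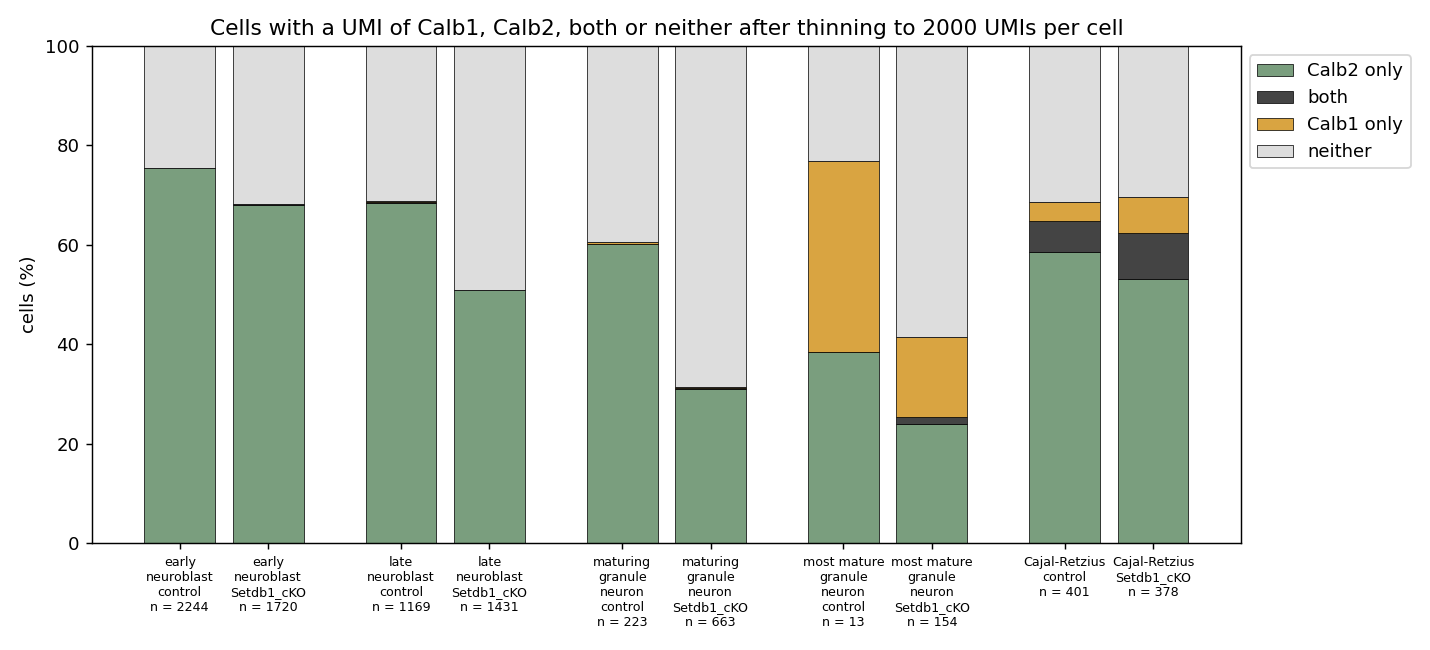
Percentage of cells with a UMI of Calb2 only, both genes, Calb1 only or neither, for 4 granule-lineage classes and Cajal-Retzius cells in each library, each cell thinned to 2000 UMIs and n the number of cells. The grey part (neither) of maturing granule neurons is 39.5% in control and 68.5% in Setdb1_cKO, and the black part (both) is largest in Cajal-Retzius cells.

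Calb1 was too rare before the most mature class for its meeting with Calb2 in a cell to be judged there. After thinning to 2000 UMIs, both were seen in 3 of 1169 control and 1 of 1431 Setdb1_cKO late neuroblasts, in 0 of 223 and 1 of 663 maturing granule neurons, and in 0 of 13 and 2 of 154 of the most mature cells. A count of 0 allows a share of up to 1.35% of the 223 cells and 23.1% of the 13. At 4000 UMIs both were seen in 2.72% (4 of 147) and without thinning in 5.66% (9 of 159) of the most mature Setdb1_cKO cells, against 1.30% at 2000 UMIs. In Cajal-Retzius cells both were seen in 6.23% (25 of 401) and 9.26% (35 of 378). The share with Calb2 alone was 75.4% and 68.0% in early neuroblasts, 68.4% and 50.9% in late neuroblasts and 60.1% and 31.1% in maturing granule neurons. The share with neither was 24.6% and 31.8%, then 31.2% and 49.1%, then 39.5% (33.0 to 46.2) and 68.5% (64.8 to 72.0). Having no UMI of either gene depends on depth. Unthinned, the share of maturing granule neurons with neither was 21.8% and 47.2%, and that with Calb2 alone was 77.7% and 51.04%.

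Nrgn, at chr9:37544492-37552904 on the reverse strand, had higher levels at higher maturation shares in both libraries and was called higher in Setdb1_cKO non-cycling progenitors (ratio 1.71), late neuroblasts, maturing granule neurons and the most mature class. Non-cycling progenitors held 23.9 and 40.8 CPM, below the microglial level of the same library, and 1 Setdb1_cKO cell held 32 of their 117 UMIs (27.35%). Clustering without the 10 genes turned the direction in non-cycling progenitors (0.594), late neuroblasts (0.885) and the most mature class (0.452). Under a share of 2% the libraries held 189 and 174 CPM, with overlapping intervals. The levels were 217 and 273 CPM in early neuroblasts (ratio 1.26), 351 and 637 CPM in late neuroblasts (1.82, 1.73 to 1.91), 686 and 1359 CPM in maturing granule neurons (1.98, 1.84 to 2.13) and 2052 and 3333 CPM in the most mature class (1.62, 1.44 to 1.84). Pyramidal or hilar neurons, which also use neurogranin, held 1830 and 1678 CPM (0.917). Classes that should lack it differed too, with 26.5 and 115 CPM in microglia or macrophages, 39.0 and 370 CPM in mural cells and 21.7 and 89.5 CPM in endothelial cells. Few cells held these UMIs in Setdb1_cKO: 5 cells held 71.6% of 229 in microglia or macrophages (26.8% of 41 in control), 91.5% of 47 in mural cells and 64.0% of 25 in endothelial cells. Thinned shares with a UMI were 46.6% and 69.1% in maturing granule neurons, against 7.05% and 8.59% in microglia or macrophages.

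Camk2a, on chromosome 18, held 4.85 and 9.62 CPM in late neuroblasts (32 and 94 UMIs, ratio 1.98, 1.32 to 3.06) and 16.7 and 33.2 CPM in maturing granule neurons (20 and 165 UMIs, ratio 1.99, 1.25 to 3.35). Microglia or macrophages held 9.05 and 15.5 CPM, above the late neuroblast level of the same library, with 5 cells holding 42.9% and 45.2% of these UMIs. In pyramidal or hilar neurons it was lower in Setdb1_cKO, 196 and 104 CPM (0.529, 0.476 to 0.588). Plk5, at chr10:80356459-80365489 on the forward strand, was close to the limit of detection, with at most 27 UMIs in a class of either library. It had 7 UMIs in control and 27 in Setdb1_cKO late neuroblasts (1.06 and 2.76 CPM, ratio 2.61, 1.11 to 7.09), and 0 and 15 in maturing granule neurons, too few for a call.

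**Figure D4:**
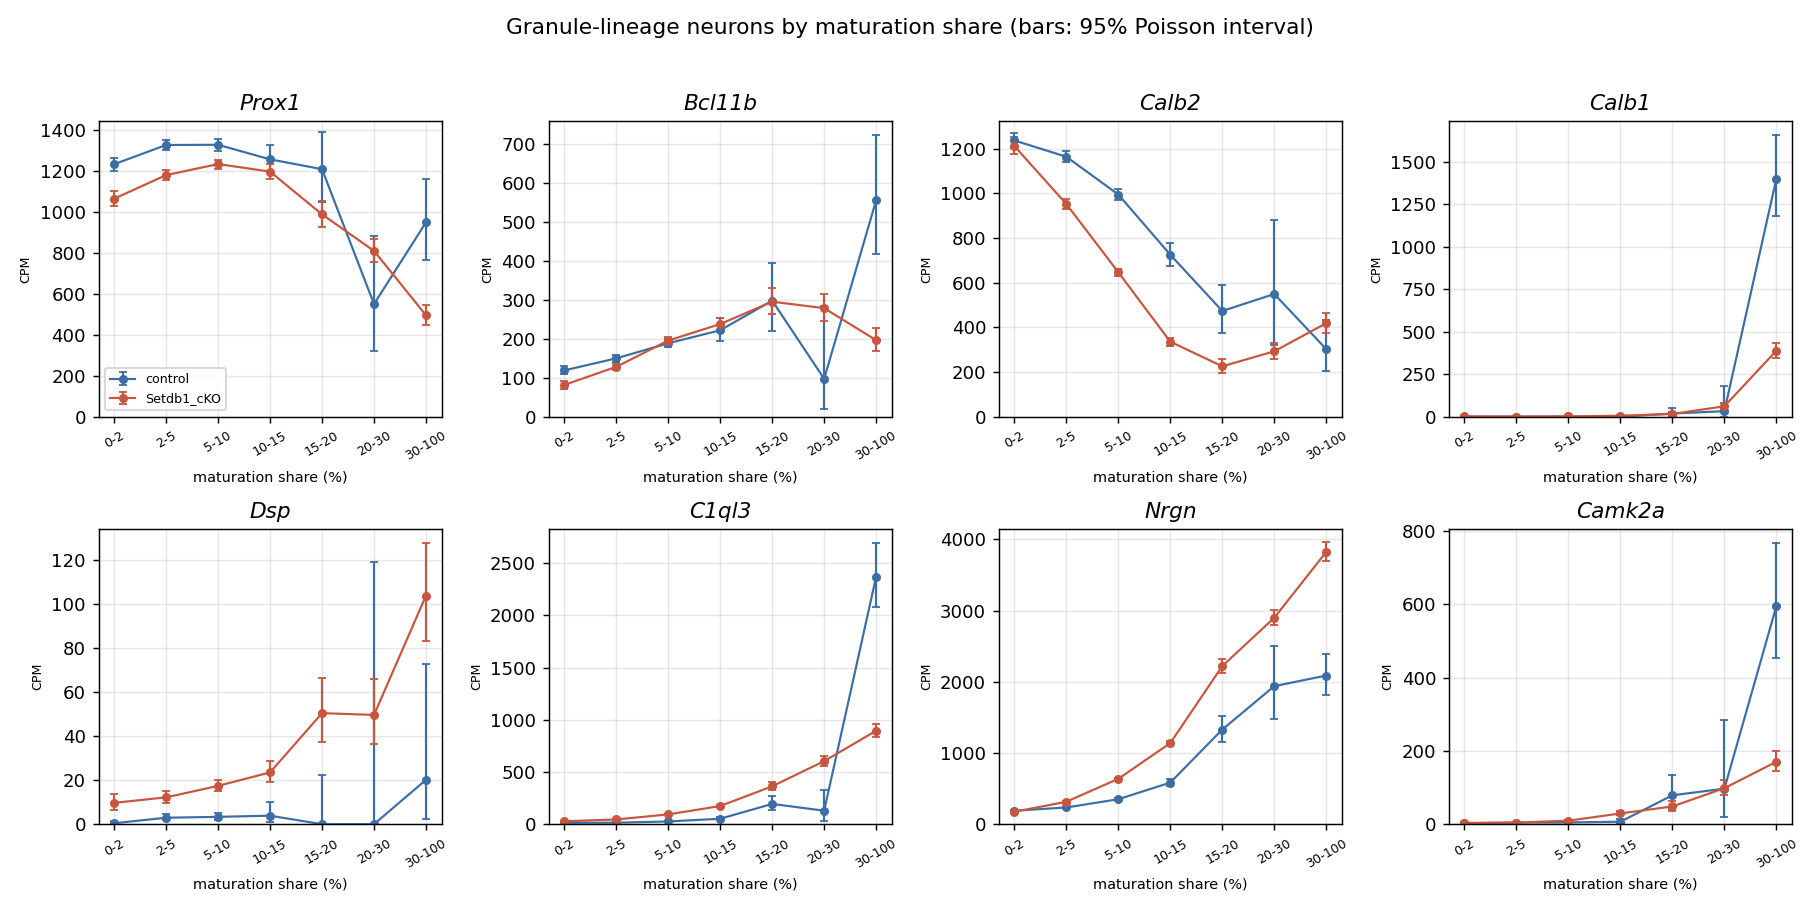
Level (CPM, linear axis) of 8 of the genes in granule-lineage neurons grouped by maturation share in percent, control in blue and Setdb1_cKO in red, with exact 95% Poisson intervals; the control bins at 20 to 30% and above 30% hold 8 and 7 cells. Calb2 starts at 1237 and 1212 CPM and is lower in Setdb1_cKO in each bin from 2% to 20%, while Dsp is higher in red from the first bin and Calb1 appears in the last bins.

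The most mature class gave a different picture, on few control cells. Of 9 measured genes 2 were higher in Setdb1_cKO (Nrgn and Dsp) and 4 lower (C1ql3, Calb1, Bcl11b and Camk2a), against 2.97% and 7.71% of 7277 genes. Stricter cell filters gave 1 higher and 1 lower, and clustering without the 10 genes gave 1 and 2, with Nrgn turned to 0.452. The median log2 ratio of all genes there was -0.18 and that of the set was -0.37. C1ql3 held 1837 and 740 CPM (0.403, 0.351 to 0.465), Camk2a 476 and 132 CPM (0.277, 0.209 to 0.373) and Bcl11b 446 and 240 CPM (0.537, 0.408 to 0.720). The control UMIs came from few cells: the top 5 of 15 cells held 98.3% of those of C1ql3 and 91.9% of those of Camk2a. The median maturation share was 29.4% in control and 25.9% in Setdb1_cKO, the median depth 5053 and 10946 UMIs, and Fxyd7 above a share of 30% stood at 151 and 18.7 CPM. The part of these differences in the result was not tested. Between 20% and 30%, where control had 8 cells, C1ql3 held 129 (35.2 to 331, from 4 UMIs) and 604 CPM. There Bcl11b held 96.9 and 278 CPM, Camk2a 96.9 and 98.2, and Calb1 32.3 and 61.0, from 3, 3 and 1 control UMIs. Above 30%, where control had 7 cells, C1ql3 held 2369 and 894.5 CPM and Calb1 1401 and 388. Bcl11b held 554.5 and 196 CPM there, and Camk2a 595 and 170.

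Outside the lineage, the set was called as follows. In Cajal-Retzius cells 5 of 8 measured genes were higher (Prox1, C1ql3, Calb1, Nrgn and Camk2a) and 0 lower, against 3.66% and 2.7% of 10481 genes. Few cells carried part of these calls: in Setdb1_cKO 5 of 391 cells held 66.1% of the Nrgn, 65.7% of the Camk2a, 59.3% of the C1ql3 and 43.9% of the Prox1 UMIs, against 12.8% of those of Calb1. In oligodendrocyte progenitors 3 of 7 were higher (Calb1, Calb2 and Nrgn), and 0 lower, against 2.78% and 2.67% of 9106 genes, and the Calb1 call there rests on 29 Setdb1_cKO UMIs of which 1 cell held 86.2%. For Nrgn 1 cell held 48.7% of 113 UMIs (41.7% of 108 in control), and for Calb2 5 of 177 cells held 68.8% of 77. In microglia or macrophages 1 of 5 was higher (Nrgn, 3.47% of 8732 genes) and 1 lower (Calb2, 91.1 and 49.6 CPM, 5.91%). In GABAergic neurons 3 of 5 were higher (Prox1, Calb2 and Nrgn) and 1 lower (Bcl11b), against 2.83% and 4.19% of 5231 genes. In Setdb1_cKO 5 of 55 GABAergic cells held 80.9% of 173 Nrgn, 40.2% of 204 Calb2 and 32.1% of 196 Prox1 UMIs. In control 5 of 22 cells held 93.1% of 29 Bcl11b and 97.8% of 45 Calb2 UMIs. The small classes gave 2 of 3 higher and 0 lower in endothelial cells (2.85% and 3.16% of all genes), 1 of 3 higher and 1 lower in mural cells (5.78% and 7.18%), 0 of 3 higher and 2 lower in fibroblasts (3.74% and 2.61%) and 1 of 3 higher and 0 lower in ependymal cells (4.1% and 4.52%).

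Other genes of the same pathways were taken from 3 lists. At the stages given here, the granule neuron list and the calcium, calmodulin and synaptic list had calls in both directions. The list of relatives and partners had none lower. Of 25 further granule neuron genes 15 were measured in late neuroblasts, with 4 higher (Ablim3, Igfbp5, Kcnip2 and Stxbp6) and 1 lower (Gsg1l), and a median log2 ratio of 0.23. Among all genes there 5.65% were higher and 4.19% lower, with a median of -0.03. Of 32 calcium, calmodulin and synaptic genes 30 were measured, with 4 higher (Camk4, Hpcal4, Ncald and Pcp4) and 1 lower (Grin2a), and a median of 0.11. Of 22 relatives and partners of the 10 genes 13 were measured, with 3 higher (C1ql1, Cbln2 and Nrxn3) and 0 lower, and a median of 0.34. In maturing granule neurons the counts were 4 higher and 2 lower of 15, 5 higher and 0 lower of 29, and 1 higher and 0 lower of 9, where 4.89% of all genes were higher and 5.26% lower. In the most mature class, with its 15 control cells, they were 0 higher and 5 lower of 14, 0 higher and 12 lower of 29, and 0 higher and 0 lower of 7, where 2.97% and 7.71% of all genes were called.

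Some of these genes have named links to the 10. Nrxn3, the neurexin that C1ql2 and C1ql3 bind, held 8.51 and 36.0 CPM in early neuroblasts (ratio 4.23, 3.40 to 5.31), 10.9 and 53.3 CPM in late neuroblasts (4.89, 3.81 to 6.34) and 29.2 and 70.7 CPM in maturing granule neurons (2.42, 1.71 to 3.53). C1ql1, a further C1q-like gene, held 6.14 and 15.9 CPM in early neuroblasts (2.60). Ncald, which encodes the calcium sensor neurocalcin delta, held 53.3 and 129 CPM in late neuroblasts (2.41), and Pcp4, a small calmodulin regulator, 604 and 964 CPM (1.60). Gsg1l, an AMPA receptor auxiliary subunit, was lower in early neuroblasts (35.4 and 11.2 CPM, 0.316), late neuroblasts (0.409) and maturing granule neurons (0.247), and Grin2a, an NMDA receptor subunit, was lower in late neuroblasts (9.09 and 2.15 CPM, 0.236).

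Patterns most like each gene were sought over 27 pairs of class and library with at least 50 cells, by Pearson correlation of log2(CPM + 1) among 12063 genes; the points share libraries and depth, so these values are descriptions. Prox1 was most like Prox1os (r = 0.986), and then Syt2 (0.912) and Insc (0.895). Prox1os is an antisense gene on the forward strand that overlaps the start of Prox1. Whether reads of Prox1 and Prox1os were told apart was not tested. Bcl11b was most like Cntnap5a (0.913), Calb2 like Myt1l (0.933), Calb1 like Zbtb16 (0.871), C1ql3 like Lrp1b (0.882), C1ql2 like Gfra1 (0.841) and Plk5 like Vwa3b (0.861). Dsp was most like Ntf3 (0.842), a neurotrophin gene, Nrgn like Ctxn2 (0.977), Gabra5 (0.969) and Camk2b (0.965), and Camk2a like Nefl (0.933). Among the 10 genes themselves the closest pair was Nrgn and Camk2a (0.826), followed by Prox1 and Bcl11b (0.767) and by C1ql2 and C1ql3 (0.721).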

How the data were processed

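The deposited values are raw UMI counts. Per the file headers they come from Cell Ranger 7.1.0, which the submitters' processing notes name together with mm10 and Seurat. Annotation, intron handling and cell calling settings are not given in those sources. No barcode held under 500 UMIs. The files held 14397 control and 12060 Setdb1_cKO barcodes with 82393428 and 87845965 UMIs. Cells were kept with at least 1000 UMIs, 500 genes and at most 10% mitochondrial UMIs, and doublets called per library by Scrublet (scanpy 1.11.5, expected rate 8%; 722 and 682) were removed.

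Classes were gated on marker UMIs: non-lineage classes needed at least 3 of their markers and 5 UMIs, intermediate progenitors 2 Eomes UMIs (cycling with at least 2 cycling markers), and lineage neurons 5 neuroblast-gene UMIs, 1 Neurod1 UMI and at most 3 Neurod6 UMIs. Cells with at least 20% haemoglobin UMIs were left out, as were cells that passed more than 1 non-lineage gate. UMIs were summed per class and library and scaled to CPM. Levels carry exact Poisson intervals, ratios exact conditional intervals and shares exact Clopper-Pearson intervals, at 95%. Log2 ratios used 0.5 UMI as pseudocount. The ratio and interval code was tested on simulated counts. The 10 genes, the lists and the alternatives were chosen with earlier results of these data known, and the gate thresholds after the marker UMIs had been seen. Named genes were the 10, Setdb1, Xist and Ddx3y, the 3 genes most like each of the 10, and list genes at least 1.5-fold apart; gate genes are named where they bear on a class. Positions are those of GENCODE vM21 (GRCm38, which is mm10); 32235 of 32285 identifiers matched. The alternatives were other cell filters, gates, scalings, a clustering without the 10 genes, thinning depths and, chosen after seeing the data, a maturation share without Rbfox3 and subtraction of the microglial level.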

Additional observations from a re-analysis of the deposited data

Results flagged for a closer look

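For 5 genes the direction between the libraries was opposite in different classes; the difference between the classes was not tested in any of them, with 1 library for each genotype. Prox1 was higher in Setdb1_cKO Cajal-Retzius cells (ratio 1.53, 29.7 and 45.6 CPM) and lower in fibroblasts (0.569, 60.0 and 34.1 CPM), all of them below the microglial level of 103 and 108 CPM. Calb1 was higher in Cajal-Retzius cells (1.63) and lower in the most mature granule neurons (0.200), the latter against 15 control cells. Calb2 was higher in oligodendrocyte progenitors (2.53, 28.9 and 73.1 CPM) and lower in late neuroblasts (0.650); 5 of 177 cells held 68.8% of the oligodendrocyte progenitor UMIs in Setdb1_cKO, and microglia or macrophages held 91.1 and 49.6 CPM. C1ql3 was higher in early neuroblasts (2.82) and lower in the most mature granule neurons (0.403), where 6 of 15 control cells held its 239 UMIs. Camk2a was higher in late neuroblasts (1.98) and lower in pyramidal or hilar neurons (0.529). Its late neuroblast levels (4.85 and 9.62 CPM) lay below the microglial levels (9.05 and 15.5 CPM), and clustering without the 10 genes turned that ratio to 0.285.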

How the results depend on the processing

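No paired analysis was possible because each genotype had 1 library, and no replicate could be left out. Of the counts of called genes under alternatives 116 stayed within 1.5 times the reported one. The other 22, given as the reported count and then the alternative, were these. Keeping doublets changed the lower count from 1 to 0 in astroglia and in both progenitor classes, and the higher count from 0 to 2 in cycling and 1 to 2 in non-cycling progenitors. Stricter cell filters changed the higher count from 2 to 1 in astroglia and in the most mature class, and the lower count there from 4 to 1; looser ones changed the higher count from 1 to 2 in non-cycling progenitors. Stricter gates, and lineage cells without Neurod6 UMIs, each gave 0 in place of 1 lower gene in non-cycling progenitors, and the latter 3 in place of 6 higher in late neuroblasts (Dsp, C1ql3 and Nrgn). A mean over cells gave 0 for 1 higher in non-cycling progenitors and 0 for 1 lower in late neuroblasts, as did a total without mitochondrial, haemoglobin, ribosomal and sex-linked genes for the latter. A maturation share without Rbfox3 gave 2 for 5 higher in maturing granule neurons.

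Clustering without the 10 genes gave neuroblast, non-cycling progenitor and some astroglia clusters mostly of 1 library. Others held both libraries, such as Cajal-Retzius cells (428 control and 395 Setdb1_cKO) and fibroblasts (205 and 192). The only cluster named late neuroblast held 50 control and 854 Setdb1_cKO cells, with 36.9% of its gated cells from that gate. None was named maturing granule neuron, so that class has no value there. The clustering changed the higher counts to 1 in cycling progenitors, 0 in non-cycling progenitors, 1 in late neuroblasts and 1 in the most mature class. It changed the lower counts to 4 in late neuroblasts and 2 in the most mature class. It also reversed 7 ratios: Bcl11b (1.17) and Nrgn (0.594) in non-cycling progenitors, Calb2 (1.03), C1ql3 (0.467), Nrgn (0.885) and Camk2a (0.285) in late neuroblasts, and Nrgn (0.452) in the most mature class; the cause was not tested. Dsp, C1ql2 and C1ql3 in early neuroblasts kept their call under all 11 alternatives. The clustering is a weak check among them, because clusters named early neuroblast drew 42.5% to 66.7% of their gated cells from that gate. Subtracting the microglial level gave 0.832 for Nrgn in early neuroblasts, reported as 1.26; 5 of 293 cells held 71.6% of the Setdb1_cKO microglial UMIs.

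Shares of cells with a UMI were higher at greater depth than at 2000 UMIs. In late neuroblasts, control and then Setdb1_cKO, thinning to 4000 UMIs gave 96.55% and 95.98% for Prox1, 81.2% and 62.7% for Calb2, 7.99% and 19.9% for C1ql3, 52.7% and 64.3% for Nrgn, and 1.38% and 4.53% for Dsp. Without thinning these were 96.5% and 97.8%, 85.55% and 69.9%, 10.4% and 28.85%, 58.2% and 71.7%, and 1.44% and 8.50%. The share of maturing granule neurons with neither Calb1 nor Calb2 was 29.8% and 56.2% at 4000 UMIs and 21.8% and 47.2% unthinned. Genes with under 30 UMIs in a class could not be called.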
